A study of Mus musculus with 45 samples.

Results

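LM1, LM2 and LM3 are mouse mammary tumour cell lines that were recovered from lungs after Myc310 cells had been injected into the mammary fat pad, and here each was compared with the Myc310 line it descended from. The members were chosen by line and medium alone: the 3 cultures each of LM1, LM2, LM3 and Myc310 in control medium, 12 of the 45 libraries of the series. Myc310 is a single line from a tumour of an MMTV-cMYC mouse with multiple tumours, so all 4 lines carry a transgene in which the mouse mammary tumour virus promoter drives c-MYC, and the recipients of the injected cells were FVB/NJ mice. Cells were plated at 250000 per well in DMEM:F12 with serum, insulin, hydrocortisone and EGF, and polyadenylated RNA was sequenced. The labels give every sample a medium change at 24 h and 6 h in the new medium, whereas the study's methods name Myc310 and LM1 for that step and leave out LM2 and LM3. Whether LM2 and LM3 had the fresh medium is therefore not settled, and such a difference in handling cannot be told apart from a difference between lines. The series describes the 3 cultures of a line as technical replicates and LM2 and LM3 as biological replicates of LM1. The p-values of each line against Myc310 therefore measure the spread between cultures, and with 1 parental line a feature common to the lung-derived lines cannot be told apart from a feature peculiar to the Myc310 cultures. The 3 comparisons also share the same 3 Myc310 cultures, so that their counts of calls are not independent of each other.

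A cell that founds a lung metastasis has left the primary tumour, survived in the circulation and grown in foreign tissue. Secreted matrix proteins, the proteases that cut them and the receptors that bind them are among the genes best known from this setting. Wnt ligands are lipid-modified secreted proteins that act through Frizzled receptors, and mammary tumours of mice are a classical system in which they were studied.

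The 12 libraries held 19521444 to 25539504 counts each, with a median of 22397470.5. Keratins 8 and 18, filament proteins of simple epithelia, were abundant in every line, with line means of 876 to 1510 CPM for Krt8 (CPM, counts scaled to a common library size) and 230 to 496 CPM for Krt18. Cdh1 and Epcam, adhesion proteins that usually mark epithelial cells, were at most at 0.0172 CPM in any line mean, so the keratins of epithelial cells were detected in these tumour lines and these adhesion genes were at or near 0. Myc was read at 1330 ± 18.4 CPM in Myc310 (SD, n = 3) and was lower in the derived lines, at 1160 ± 10.4 in LM1, 820 ± 18.8 in LM2 and 1010 ± 7.44 in LM3. Xist, the RNA that coats the inactive X chromosome, stood at 80.7 CPM in Myc310, 1.10 in LM1, 273 in LM2 and 0.272 in LM3, so its level did not follow the division into parental and lung-derived lines. The Y-linked genes Kdm5d and Uty had no count in any of the 12 libraries.

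Of 12786 genes tested, edgeR's quasi-likelihood test called 4563 in LM1 against Myc310 (35.7%), 6254 in LM2 (48.9%) and 6253 in LM3 (48.9%). Rises of at least 2-fold outnumbered falls in LM2 (770 against 246) and LM3 (799 against 228), whereas LM1 had 359 rises and 459 falls. Higher in all 3 lines were 820 genes (6.41% of those tested) and lower in all 3 were 589 (4.61%). For 770 of the 820 and 565 of the 589, the 9 LM cultures did not overlap the 3 Myc310 cultures, where 7.7% of all genes had every LM culture above and 6.41% had every LM culture below. Most shared changes were small: the smallest of the 3 log2 fold changes had a median of 0.347 among the higher genes and of -0.209 among the lower ones. At least 2-fold in each line were 229 higher genes (1.79%) and 59 lower genes (0.461%). Of the 229, 57 had 3 counts or fewer in each Myc310 culture and 8 had none there, and 114 of the 229 reached 5 CPM in some line. Of the 59 lower genes, 8 had 3 counts or fewer in each of the 9 LM cultures, and 11 reached 5 CPM.

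A shared direction did not mean a shared size. LM1 differed from LM2 at 6995 genes (54.7%) and from LM3 at 6582 (51.5%), and LM2 differed from LM3 at 4806 (37.6%). Some pair of LM lines differed for 196 of the 229 higher genes and 30 of the 59 lower genes, with a median gap between the largest and the smallest change of 1.35 and 1.52 on the log2 scale. LM1 had the smallest rise for 144 of the 229 genes, LM2 for 55 and LM3 for 30.

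Among the 820 genes higher in all 3 lines, the one with the largest change in its weakest line was Hspa12b, an atypical member of the heat shock protein 70 family. It was read at 8.97, 12 and 10.4 CPM in the LM1 cultures, at 6.38, 5.98 and 5.92 in LM2 and at 6.21, 6.73 and 7.18 in LM3, against 0, 0.044 and 0 in Myc310. Every LM culture stood far above every Myc310 culture. With 1 count over the 3 Myc310 cultures the ratio of counts was 731 in LM1 (exact 95% counting interval 131 to 28900), 423 in LM2 (75.5 to 16800) and 465 in LM3 (83.1 to 18400). The fitted fold changes of genes this close to 0 depend on the prior count and are not bounds.

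Dixdc1 and Ddr2 had narrower ranges among the derived lines. Dixdc1, a DIX-domain protein that acts in Wnt signalling, was at 18.6, 16.6 and 16.1 CPM in LM1, 29.4, 27.4 and 28.8 in LM2, and 28.9, 28.9 and 27.8 in LM3. In Myc310 it was at 0.513, 0.792 and 0.607 CPM, so the groups did not overlap, and its log2 fold changes were 4.72 ± 0.13 (SE), 5.50 ± 0.12 and 5.50 ± 0.12, with adjusted p-values of 2.63e-18, 1.78e-20 and 1.35e-20. Ddr2, a receptor tyrosine kinase that binds fibrillar collagen and was named after its values were seen, was at 64.9, 64.5 and 66.7 CPM in Myc310. It rose to 321, 323 and 329 CPM in LM1, 329, 341 and 333 in LM2 and 319, 303 and 324 in LM3. LM1 was lower than LM2 and LM3 for Dixdc1 (differences of -0.78 and -0.77 on the log2 scale), whereas the 9 LM cultures of Ddr2 lay within 303 to 341 CPM. For Ddr2 the log2 fold changes were 2.29, 2.38 and 2.29, each with an SE of 0.03.

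A stricter comparison took the line as the unit. Counts were summed over the 3 cultures of each of the 10 control lines of the series. The LM lines were set against Myc310 among 16017 genes, with the spread taken from lines within a subtype. Myc310 is 1 sum without a spread of its own and was assumed to vary like the lines of the other subtypes. Some of those lines were recovered after injection of LM cells, so they are not independent of the LM lines. Dixdc1 (log2 fold change 5.29, adjusted p = 0.0363) and Ddr2 (2.32, adjusted p = 0.0395) were called higher, which is 0.0125% of the genes, and no gene was called lower. At an unadjusted p under 0.05 the test held 521 genes (3.25%), 351 higher (2.19%) and 170 lower (1.06%). Among them were 165 of the 229 genes and 35 of the 59. Those genes had been picked from the same LM and Myc310 libraries, so this overlap is not separate support. DESeq2 on the same sums called 116 genes. The calls rest on few lines. Without LM3 no gene was called, with adjusted p-values of 0.124 for Dixdc1 and 0.127 for Ddr2. Ddr2 also missed the threshold without LM1 (adjusted p = 0.0869) and without LM2 (adjusted p = 0.0548), while Dixdc1 kept its call without either. With limma's voom and the line as a random block, Dixdc1 missed the threshold (adjusted p = 0.064) and Ddr2 kept its call. With the sums of the 4 lines alone, the adjusted p-values were 0.474 for Dixdc1 and 0.113 for Ddr2.

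The windows at the start of 4 of these genes are shown because they belong to the higher gene with the largest change in its weakest line, to the pair called with the line as the unit, and to Wnt6, whose neighbour Wnt10a rose with it. Each holds 300 bases, 250 before and 50 after the start of the gene in RefSeq (GRCm38.p6), 5′ to 3′ on the strand of the gene, with GGGCGG or its reverse complement CCGCCC in capitals. The windows are chr2:131127162-131127461 on the plus strand for Hspa12b, chr9:50737686-50737985 on the minus strand for Dixdc1, chr1:170088895-170089194 on the minus strand for Ddr2 and chr1:74771642-74771941 on the plus strand for Wnt6.
Hspa12b: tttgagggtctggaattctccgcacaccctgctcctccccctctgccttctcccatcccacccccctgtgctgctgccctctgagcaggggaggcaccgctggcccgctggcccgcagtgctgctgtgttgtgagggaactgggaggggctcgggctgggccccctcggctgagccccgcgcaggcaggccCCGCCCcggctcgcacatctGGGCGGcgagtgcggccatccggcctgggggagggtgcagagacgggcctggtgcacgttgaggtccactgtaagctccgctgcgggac
Dixdc1: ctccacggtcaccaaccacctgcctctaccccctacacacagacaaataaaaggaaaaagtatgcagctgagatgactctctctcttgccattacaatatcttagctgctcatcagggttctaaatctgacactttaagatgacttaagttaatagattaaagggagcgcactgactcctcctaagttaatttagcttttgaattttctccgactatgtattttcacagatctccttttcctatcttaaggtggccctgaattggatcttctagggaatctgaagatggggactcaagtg
Ddr2: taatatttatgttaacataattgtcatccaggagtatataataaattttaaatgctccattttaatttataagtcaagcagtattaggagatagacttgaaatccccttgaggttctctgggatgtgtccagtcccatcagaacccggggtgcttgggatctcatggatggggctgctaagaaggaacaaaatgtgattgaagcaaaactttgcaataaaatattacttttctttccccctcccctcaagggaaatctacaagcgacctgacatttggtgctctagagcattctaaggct
Wnt6: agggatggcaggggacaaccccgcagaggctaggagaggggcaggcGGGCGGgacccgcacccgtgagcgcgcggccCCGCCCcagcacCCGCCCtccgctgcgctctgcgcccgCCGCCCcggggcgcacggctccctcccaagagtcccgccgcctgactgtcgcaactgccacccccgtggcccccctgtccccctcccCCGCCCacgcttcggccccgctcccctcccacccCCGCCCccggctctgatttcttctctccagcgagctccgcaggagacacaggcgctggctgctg
Hspa12b and Wnt6 had 19 and 31 CG pairs in the window, with 2 and 6 matches to GGGCGG, whereas Dixdc1 and Ddr2 had 3 and 2 CG pairs and no match. The median over 27025 promoters was 7 CG pairs, and 35.9% of those promoters held GGGCGG on either strand. CACGTG, the letters of the E-box that MYC binds, and TGANTCA, those of the AP-1 site, were in none of the 4 windows and in 7.24% and 7.92% of all promoters. Windows for Fkbp10, P3h4, Wnt10a and Mmp2 are not shown here.

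Mmp2, Col8a1, Col3a1 and Fkbp10 were among the 12 named increases. Mmp2, a gelatinase that degrades denatured collagen and basement membrane collagen, was at 36.6, 37.6 and 40.7 CPM in LM1, 45.3, 43.8 and 46.4 in LM2 and 85.0, 83.7 and 82.1 in LM3. The Myc310 cultures were at 1.10, 0.704 and 0.654 CPM, below all 9, and the log2 fold changes were 5.49 ± 0.10, 5.77 ± 0.10 and 6.66 ± 0.09. Col8a1, a short-chain collagen, was at 28.5, 25.8 and 25.7 CPM in LM1, where it was highest, at 10.3, 8.81 and 9.92 in LM2, at 11.5, 8.97 and 9.88 in LM3 and at 0.197, 0.088 and 0.280 in Myc310. Its log2 fold changes were 7.10, 5.67 and 5.73 (adjusted p-values 7.63e-19, 5.52e-16 and 3.34e-16).

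Col3a1, the chain of type III collagen, was graded across the derived lines. It was at 12, 13.6 and 13.2 CPM in LM1, 40, 40.1 and 41 in LM2 and 115, 104 and 107 in LM3, against 0.473, 0.748 and 0.187 in Myc310. No LM line overlapped another, and the difference between LM1 and LM3 was -3.10 on the log2 scale (adjusted p = 2.16e-20). Fkbp10, a chaperone and prolyl isomerase of procollagen in the endoplasmic reticulum, followed the same order at 3.51, 5.56 and 3.57 CPM in LM1, 21.3 to 22.7 in LM2 and 62.8, 61.0 and 58.5 in LM3. In Myc310 it had 1 count over the 3 cultures, and the ratios of counts were 295 (52.5 to 11700), 1530 (274 to 60500) and 4230 (759 to 167000). P3h4, whose product works with collagen hydroxylases, is the gene next to Fkbp10 on chromosome 11 and had line means of 0.143 CPM in Myc310, 0.700 in LM1, 6.55 in LM2 and 16.4 in LM3.

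Since collagens and Pdgf receptors also mark fibroblasts, the level of the whole marker list stands beside these results. The summed CPM of the 12 fibroblast markers was 1.81 to 2.20 in Myc310, 15.2 to 17.7 in LM1, 59.2 to 63.3 in LM2 and 115 to 125 in LM3. Only Col3a1, Pdgfra and Pdgfrb of the 12 passed the filter on low counts, and all 3 were higher in each LM line, with Pdgfrb missing the threshold in 1 line without Myc310 replicate 3 (adjusted p = 0.14) and without each of 8 other single cultures, under DESeq2 (adjusted p = 0.058) and with the replicate number as a block (adjusted p = 0.0573). Among the markers that did not pass the filter, Col1a1 had line means of at most 0.474 CPM and Col1a2 of at most 0.285, and Dcn, Lum, Fap and Thy1 of at most 0.0942. The summed leukocyte markers were at 10.3 to 11.1 CPM in Myc310, 9.67 to 10.5 in LM1, 18.6 to 19.3 in LM2 and 14.2 to 16.6 in LM3, with Ptprc at most at 0.0143 CPM and Lyz2 at 0 in all line means. Of the 8 leukocyte markers 3 were tested, and of these Cd68 was higher in LM2 (0.83) and LM3 (0.57), and S100a8 was higher in LM2 (1.32) and lower in LM1 (-1.50). The summed alveolar markers were at 0.789 to 1.03 CPM in Myc310, 0.632 to 1.03 in LM1, 1.83 to 2.49 in LM2 and 5.14 to 6.67 in LM3. Of the 6 alveolar markers 2 were tested, and Hopx was higher in LM2 (2.90) and LM3 (4.62). The part of these cell types in the results was not tested. In bulk RNA, a higher level in more cells and a higher level per cell cannot be told apart.

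**Figure D1:**
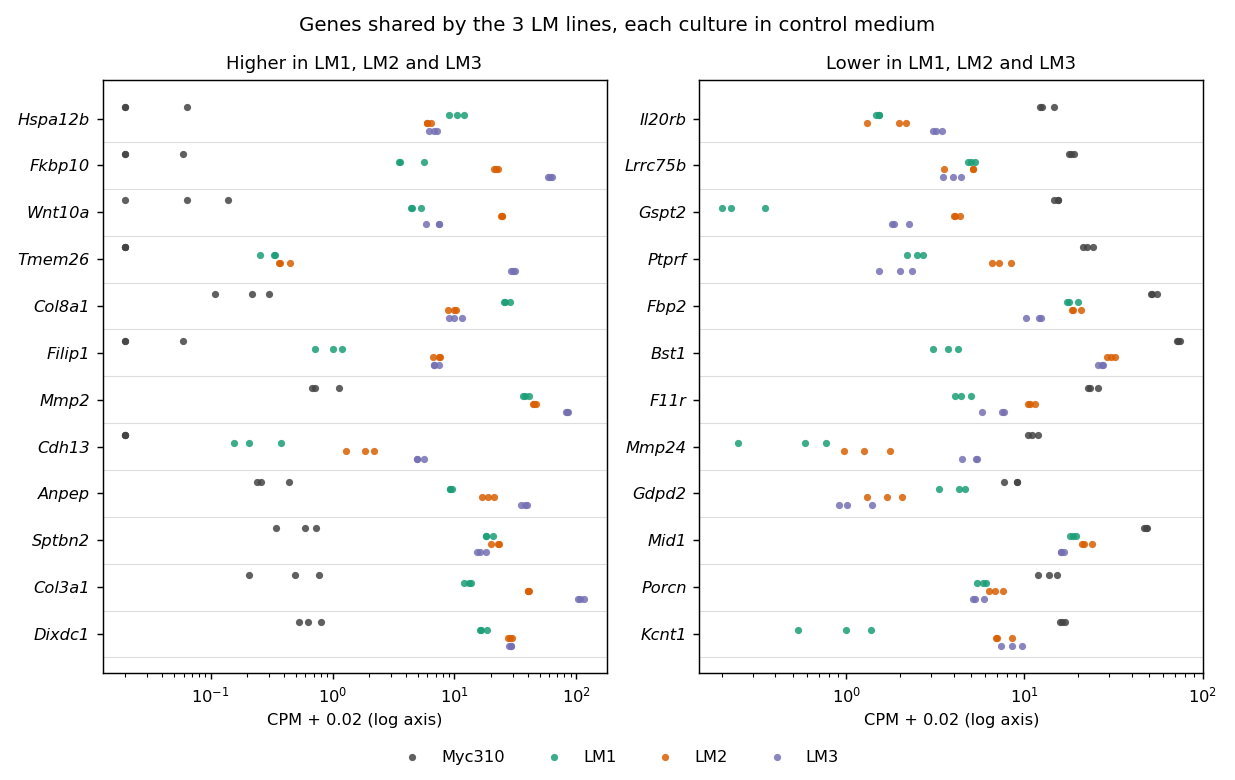
CPM in each of the 12 cultures, on a log axis with a small constant added so that cultures at 0 appear at the left edge, for the 12 named genes higher in LM1, LM2 and LM3 (left) and the 12 named genes lower in them (right). Each point is 1 culture. In every row the 3 Myc310 points lie on 1 side of all 9 LM points, while the LM lines are often far from each other, as for Tmem26, Col3a1 and Fkbp10 on the left and Gspt2 and Bst1 on the right.

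Wnt signalling genes that rose in all 3 lines included ligands, a secreted inhibitor and a receptor. Wnt10a, a secreted ligand, was at 4.38, 4.47 and 5.26 CPM in LM1, 23.9, 24.7 and 24.6 in LM2 and 5.84, 7.43 and 7.41 in LM3. In Myc310 it was at 0.118, 0.044 and 0 CPM, and the log2 fold changes were 6.21, 8.62 and 6.79. Wnt6, the ligand gene beside it on chromosome 1, was at 2.32, 2.76 and 3.14 CPM in LM1, 19.2, 18.3 and 17.0 in LM2, 5.55, 5.96 and 5.84 in LM3 and 0.197, 0.308 and 0.140 in Myc310. LM2 was the highest line for both ligands. Notum, an enzyme that removes the lipid of Wnt proteins, rose from a mean of 1.54 CPM to 9.69, 7.25 and 9.53, and the receptor Fzd7 rose from 2.68 to 9.43, 7.73 and 13.0. Porcn, the acyltransferase that lipid-modifies Wnt proteins, went the other way, from 13.8, 15.3 and 11.9 CPM in Myc310 to 5.42 to 6.03 in LM1, 6.32 to 7.53 in LM2 and 5.09 to 5.88 in LM3.

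Counts over the lists that follow stand beside the 6.41% of all tested genes that were higher and the 4.61% that were lower in all 3 lines, and the share of a list near these is not a result about it. Of 15 tested members of the Wnt list, 6 were higher in all 3 lines and 1, the receptor Fzd4, was lower. Wnt5b was the least secure of the 6, and without Myc310 replicate 3 its smallest change of 0.64 had an adjusted p of 0.154. The list's median log2 fold changes were 0.52 in LM1, 0.60 in LM2 and 1.84 in LM3, beside medians over all tested genes of 0.0041, -0.0019 and -0.0052.

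The lists overlap in part, and a gene in more than 1 list, such as Sparc, Mmp2 or Itga5, was counted in each. Among the lists of genes tied to invasion, 10 of 20 tested mesenchymal genes were higher in all 3 lines and none was lower. The changes were small: Sparc, a matricellular protein, had log2 fold changes of 0.37, 0.28 and 0.34, and S100a4, a calcium-binding protein, of 0.42, 0.62 and 0.29. Vim and Zeb1 were at the edge, and without Myc310 replicate 2 their adjusted p-values in the weakest line were 0.132 and 0.0812. Of 14 tested genes of the lung colonisation list, genes known from other models of breast cancer, 8 were higher in all 3 lines and none was lower. They included Mmp2 and Angptl4, a secreted inhibitor of lipoprotein lipase with log2 fold changes of 3.08, 4.66 and 4.67. Others were Nedd9, a scaffold of focal adhesions (1.01, 1.18 and 1.40), Ptgs2, the inducible cyclooxygenase (0.79, 1.02 and 1.82), and Ltbp1, which binds latent TGF-beta (1.22, 1.37 and 0.87). Vcam1, also counted there, missed the threshold without Myc310 replicate 2 (smallest change 0.40, adjusted p = 0.0669).

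Of 23 tested collagen and laminin genes, 8 were higher in all 3 lines and 2 were lower. Beyond Col3a1 and Col8a1 the increases were modest, with Hspg2, the basement membrane proteoglycan perlecan, at 0.52, 0.54 and 0.57 and Col7a1, the collagen of anchoring fibrils, at 0.88, 0.61 and 0.54. Lama5 fell by 0.22, 0.22 and 0.27 on the log2 scale. Of 26 matrix proteases and inhibitors, 6 were higher in all 3 lines, including Mmp2, Timp1, Adam8 and Adamts1, and Mmp24 was lower. Of 15 integrins, 4 were higher and none was lower, and the clearest was Itga10, a subunit of a collagen receptor (1.02, 0.80 and 0.88). The count of 4 fell to 2 without some single cultures, with Itga7 at an adjusted p of 0.122 and Itgb7 at 0.148 in their weakest line without Myc310 replicate 2.

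In the TGF-beta and BMP list 5 of 27 tested genes were higher and 4 lower in all 3 lines. Tgfbr3, the co-receptor betaglycan, was at 25.4 to 27.5 CPM in Myc310 and at 54.3 to 63.7 CPM in the 9 LM cultures, with log2 fold changes of 1.22, 1.24 and 1.12. Ltbp3 went the other way (-0.48, -0.45 and -0.32). The 4 lower genes fell to 2 without Myc310 replicate 3, where Smad3 (adjusted p = 0.0792) and Tgfbr1 (adjusted p = 0.0978) lost their calls. Of 22 tested growth factor ligands and receptors, 4 were higher and 2 lower in all 3 lines. The lower genes were Igf2r, the receptor that clears IGF2 (-0.29, -0.14 and -0.28), and Nrg2, a ligand of the ERBB receptors, which missed the threshold without LM2 replicate 1 (smallest change -0.99, adjusted p = 0.134). Among the higher genes was Igfbp6, a binding protein with preference for IGF2. Igfbp6 was at 7.79 to 8.68 CPM in Myc310, 57.9 to 58.8 in LM1, 90.8 to 92.9 in LM2 and 108 to 112 in LM3, so that no line overlapped another.

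In the list of glycolysis and hypoxia genes 6 of 35 were higher in all 3 lines and 1 was lower. Leaving out single cultures left 4 to 6 higher and 1 to 2 lower. Pgam1 and Slc16a1 were the least secure, with smallest changes of 0.05 and adjusted p-values of 0.0685 and 0.0674 with all 30 control libraries. Slc16a3, the lactate exporter MCT4, was at 56.5, 55.5 and 56.9 CPM in Myc310 and at 157, 162 and 158 in LM1, 118, 117 and 118 in LM2 and 181, 171 and 179 in LM3. Its log2 fold changes were 1.48, 1.09 and 1.67, each with an SE of 0.03. Slc2a3, the glucose transporter GLUT3, rose from a mean of 0.438 CPM to 8.62, 16.9 and 3.44, and Epas1, the transcription factor HIF-2 alpha, had log2 fold changes of 0.52, 1.46 and 1.30. Hk2, a hexokinase, was lower in all 3 (-0.44, -0.18 and -0.38).

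Shared decreases of at least 2-fold were fewer than shared increases, and the genes named here reached 5 CPM in some line. Il20rb, a subunit of receptors for interleukins of the IL-20 family, was at 12.5, 12.2 and 14.7 CPM in Myc310, 1.5, 1.45 and 1.5 in LM1, 2.14, 1.29 and 1.96 in LM2 and 3.15, 3.06 and 3.41 in LM3. The groups did not overlap, and its log2 fold changes were -3.16 ± 0.16, -2.85 ± 0.15 and -2.02 ± 0.14. Ptprf, a receptor protein tyrosine phosphatase found at cell contacts, was at 22.5, 21.4 and 24.3 CPM in Myc310, 2.47, 2.17 and 2.67 in LM1, 8.34, 6.58 and 7.22 in LM2 and 2.32, 1.51 and 1.98 in LM3. LM2 lay between Myc310 and the other two lines for Ptprf. F11r, the junctional adhesion molecule JAM-A, fell from a mean of 24.0 ± 1.57 CPM (SD, n = 3) to 4.49 ± 0.473, 10.8 ± 0.525 and 6.97 ± 1.02. Jup, the junction protein plakoglobin, was at 178 to 179 CPM in Myc310 and at 112 to 121 CPM in the 9 LM cultures.

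Other named decreases were metabolic or of unlike roles. Fbp2, the muscle form of fructose bisphosphatase, fell by 1.53, 1.42 and 2.17 on the log2 scale, and Mid1, a microtubule-associated ubiquitin ligase, by 1.38, 1.10 and 1.55. Bst1, a surface enzyme related to CD38, was at 72.5, 71.5 and 75 CPM in Myc310 and fell furthest in LM1, to 4.23, 3.70 and 3.05, with 29 to 32.1 in LM2 and 25.8 to 27.7 in LM3. Gspt2, a translation termination factor, showed the same order, with means of 15.2 CPM in Myc310, 0.238 in LM1, 4.12 in LM2 and 1.95 in LM3. Lrrc75b (-1.88, -1.98 and -2.20), Gdpd2 (-1.10, -2.34 and -2.97), Mmp24, a membrane-bound metalloproteinase (-4.45, -3.06 and -1.11), and Kcnt1, a sodium-activated potassium channel (-4.10, -1.11 and -0.92), completed the 12.

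Glutathione genes showed 1 shared increase and 3 shared decreases among 25 tested. Slc7a11, the cystine transporter subunit xCT, was at 17.4, 16 and 15.6 CPM in Myc310 and at 9.98 to 10.7 in LM1, 9.35 to 10.5 in LM2 and 9.07 to 11.4 in LM3, without overlap. Its log2 fold changes were -0.67, -0.72 and -0.63 (adjusted p-values 1.62e-06, 2.79e-07 and 1.56e-06). Cth, the transsulfuration enzyme that yields cysteine, had changes of -0.32, -0.80 and -0.67, and Mat2a, which makes S-adenosylmethionine, of -0.29, -0.37 and -0.34. Gpx8, a peroxidase of the endoplasmic reticulum, rose by 0.74, 1.06 and 0.78. Cbs, the enzyme before Cth, was low in every line. It was at 0.176 to 0.607 CPM in Myc310, 0.0516 to 0.235 in LM1, 0.214 to 0.609 in LM2 and 1.82 to 1.98 in LM3. It was carried by LM3 alone, with a log2 fold change of 2.49 there and adjusted p-values of 0.152 and 0.451 in LM1 and LM2. Gsr, glutathione reductase, was higher in LM2 (0.18) and LM3 (0.32), and Gclc, the catalytic subunit of the first enzyme of glutathione synthesis, was lower in LM2 (-0.14) and LM3 (-0.31), with the call in LM2 lost without Myc310 replicate 1 (adjusted p = 0.0527). Gss, glutathione synthetase, was at -0.15 in LM2 (adjusted p = 0.0377), a call lost without LM2 replicate 1 (adjusted p = 0.167), LM2 replicate 2 (0.0766), Myc310 replicate 1 (0.0604) or Myc310 replicate 2 (0.178). Gpx3, a secreted peroxidase, was at -0.97, -0.48 and -0.33 with no call, but it was called lower in LM1 without a filter on low counts (-0.98, adjusted p = 0.0423) and without Myc310 replicate 3 (-1.21, adjusted p = 0.0368). Gclm was higher in LM1 (0.18) and lower in LM2 and LM3 (-0.16 in both).

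Of the iron and ferroptosis list 4 of 21 tested genes were higher and 3 lower in all 3 lines. Nqo1, a quinone reductase, had log2 fold changes of 0.63, 0.83 and 1.25 and Hmox1, the inducible heme oxygenase, of 0.28, 0.43 and 0.25. Lcn2, the siderophore-binding lipocalin, fell from 176, 189 and 179 CPM in Myc310 to 51.8, 61.6 and 53.7 in LM1, 121, 126 and 124 in LM2 and 103, 93.9 and 89.4 in LM3, and Cp, the ferroxidase ceruloplasmin, fell by 0.86, 1.27 and 0.53 on the log2 scale. Of 27 tested aldehyde, retinoid and xenobiotic enzymes, 2 were higher and 3 lower in all 3 lines, the latter including Aldh3a1 (-3.36, -1.17 and -0.76) and Mgst1, a microsomal glutathione transferase (-3.54, -0.77 and -1.41), and the 2 higher of 27 lie near the share over all genes. In the Myc network list none of 11 was higher, and Myc, Mxd4 and Mxi1 were lower, with Mxi1 missing the threshold without LM3 replicate 2 (smallest change -0.11, adjusted p = 0.0554). Of 48 genes of DNA replication and mitosis 2 were higher and 6 lower in all 3 lines, and leaving out single cultures brought the 6 down to between 1 and 5. Of 27 p53 targets 5 were higher and 2 lower, with Cdkn1a, the cell cycle inhibitor p21, at 0.36, 0.95 and 1.07. Without Myc310 replicate 3 the 5 fell to 3, as Mdm2 (adjusted p = 0.0922) and Btg2 (adjusted p = 0.086) lost their calls.

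**Figure D2:**
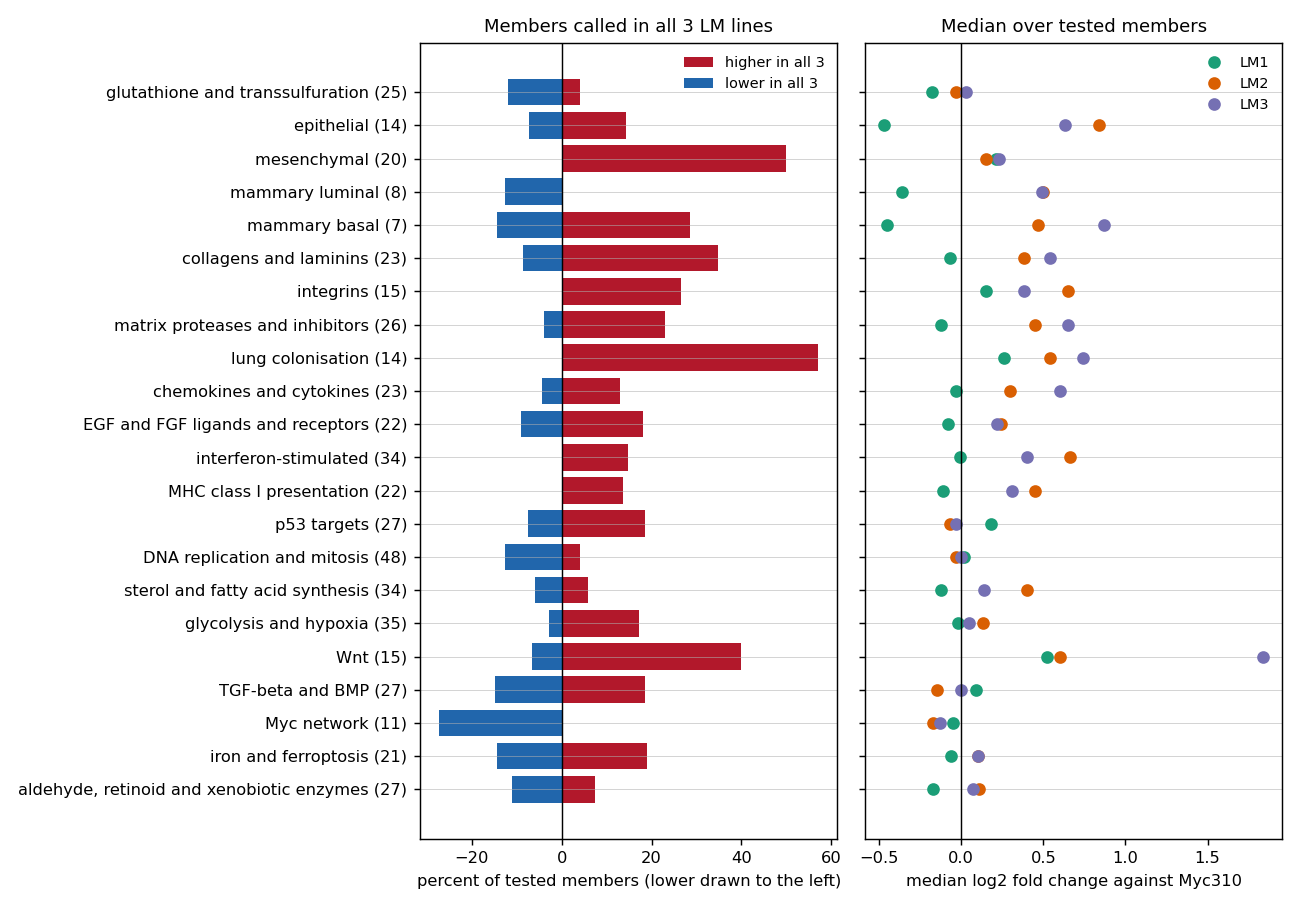
Left, the percent of tested members of each pathway list that were higher (drawn to the right) or lower (drawn to the left) in LM1, LM2 and LM3 alike, with the number of members tested in parentheses. Right, the median log2 fold change over the tested members in each line. Mesenchymal, lung colonisation and Wnt genes have the largest shares on the right, and the LM1 point lies left of the LM2 and LM3 points for epithelial, sterol and MHC class I genes.

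LM1 stood apart from LM2 and LM3 in several lists. Over all genes, 19.9% were lower in LM1 than in both other LM lines and 16.7% were higher. Of 34 genes of sterol and fatty acid synthesis, 23 were lower in LM1 than in both, and the list's median change against Myc310 was -0.12 in LM1, 0.40 in LM2 and 0.14 in LM3. Fdps, a farnesyl diphosphate synthase, had log2 fold changes of -0.32, 0.85 and 0.38.

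Of 22 tested genes of MHC class I presentation, 13 were lower in LM1 than in LM2 and LM3 and 3 were higher than Myc310 in all 3 lines, B2m, Calr and Psmb8. Psmb8, an inducible subunit of the proteasome, was at 0.276, 0.044 and 0.421 CPM in Myc310, 2.22, 1.67 and 2.39 in LM1, 19.8, 19.7 and 18.2 in LM2 and 23.7, 23.8 and 21.9 in LM3. Tap2, a subunit of the peptide transporter, was at a mean of 6.74 CPM in Myc310, 6.20 in LM1, 21.7 in LM2 and 20.4 in LM3. H2-K1, which shares sequence with other class I genes so that its count is uncertain, had log2 fold changes of -0.29, 0.52 and 0.42. Of 34 interferon-stimulated genes 5 were higher in all 3 lines and none was lower, among them Lgals3bp, a secreted galectin-binding glycoprotein, at 31.6 to 33.3 CPM in Myc310 and 60.4 to 78.6 CPM in the 9 LM cultures.

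Epithelial genes ran in opposite directions between the lines. Of 14 tested, 9 were lower in LM1 than in LM2 and LM3 and none was higher, and the medians were -0.47, 0.84 and 0.63. In all 3 lines Spint2 and Ocln were higher than in Myc310 and Jup was lower. Ocln, the tight junction protein occludin, was at means of 1.41 CPM in Myc310, 2.32 in LM1, 2.98 in LM2 and 2.25 in LM3, and it missed the threshold without Myc310 replicate 3 (smallest change 0.54, adjusted p = 0.146). Krt19, a keratin of simple epithelia, was at means of 34.6 CPM in Myc310, 6.06 in LM1, 72.4 in LM2 and 53.6 in LM3, with log2 fold changes of -2.52, 1.09 and 0.65. Matrix proteases followed with 15 of 26 lower in LM1 than in both, and Plat, tissue plasminogen activator, was at means of 18.7 CPM in Myc310, 14.7 in LM1, 47.2 in LM2 and 70.5 in LM3.

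Eng moved in the other sense. Endoglin, a TGF-beta co-receptor best known from endothelial cells, was at 2.21, 1.5 and 1.87 CPM in Myc310 and rose to 173, 177 and 173 in LM1, 5.18, 6.92 and 6.48 in LM2 and 10.6, 10.6 and 10.3 in LM3. The log2 fold changes were 6.52, 1.74 and 2.51. The summed endothelial markers were 173 to 177 CPM in LM1 and at most 11.6 CPM in LM2 and LM3, with nearly all of it from Eng, and Pecam1, Tek and Erg were at most at 0.109 CPM in any line mean.

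Genes carried by a single line met a stricter rule: at least 2-fold from Myc310 and past the threshold, different in the same direction from both other LM lines, and the others either not called or under 0.5 on the log2 scale. LM1 carried 108 such genes (0.845% of those tested), with 22 higher (0.172%) and 86 lower (0.673%). LM2 carried 65 (0.508%), with 40 higher (0.313%) and 25 lower (0.196%), and LM3 carried 82 (0.641%), with 65 higher (0.508%) and 17 lower (0.133%). Many of these genes were low: a mean of at least 50 counts left 11 higher and 42 lower in LM1, 3 and 9 in LM2, and 3 and 8 in LM3.

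In LM1, Pwwp3b, a PWWP-domain protein, was at 31.6, 35.4 and 31.7 CPM where the other 9 cultures lay between 5.61 and 8.41. Mvb12b, a subunit of the ESCRT-I sorting complex, was at 10.1, 11.5 and 10.2 CPM in LM1 and at 1.74 to 3.26 elsewhere, and without Myc310 replicate 2 it no longer met the rule (log2 fold change 1.84). Bmyc, a short relative of Myc, was at 0, 0.316 and 0.235 CPM in LM1 and between 4.39 and 6.66 elsewhere. Lamb3, the beta chain of laminin 332, was likewise carried by LM1, at 0.206, 0.587 and 0.328 CPM against 3.30 to 5.09 elsewhere. Zfp991 fell by 3.20 on the log2 scale in LM1, but it belongs to a zinc-finger family of near copies, so its count is uncertain. Aldh1a1, a retinal dehydrogenase that shares sequence with Aldh1a7, was also higher in LM1 alone, at 1.97 to 2.57 CPM against 0.0898 to 0.344.

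In LM2, Grik3, a kainate receptor subunit, was at 6.72, 6.88 and 7.74 CPM, with no count in LM1 or LM3 and 1 count in Myc310, a ratio of 494 (88.3 to 19600). Nkx2-5, a homeobox factor of the heart, was at 6.46, 7.05 and 6.09 CPM in LM2 and at 0.158 to 0.723 CPM in the others. Pank1, a pantothenate kinase, was at 3.08, 3.65 and 3.70 CPM in LM2 and at 8.17 to 10.7 CPM elsewhere, and Prorsd1 was at 1.28, 1.5 and 1.09 CPM against 3.61 to 5.98. None of the 4 had an LM2 culture within the range of the other 9.

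In LM3, Ece2, an endothelin-converting enzyme, was at 6.38, 7.04 and 7.45 CPM and at 0.563 CPM or less elsewhere. Its log2 fold change was 5.70, and it left the class without LM1 replicate 2 (5.70) or without Myc310 replicate 3 (6.70), and also under DESeq2 (5.76), without a filter on low counts (5.70) and with all 30 control libraries (5.70). Elapor2 was at 5.59, 4.80 and 5.12 CPM in LM3 and at 0.103 to 0.774 elsewhere, and it left the class without LM1 replicate 3 (3.21). Msrb3, a methionine sulfoxide reductase, fell to 4.60, 3.44 and 4.67 CPM from 9.77 to 12.7 elsewhere, and Dsc3, a desmosomal cadherin, to 2.48, 3.75 and 4.13 from 6.29 to 9.51.

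**Figure D3:**
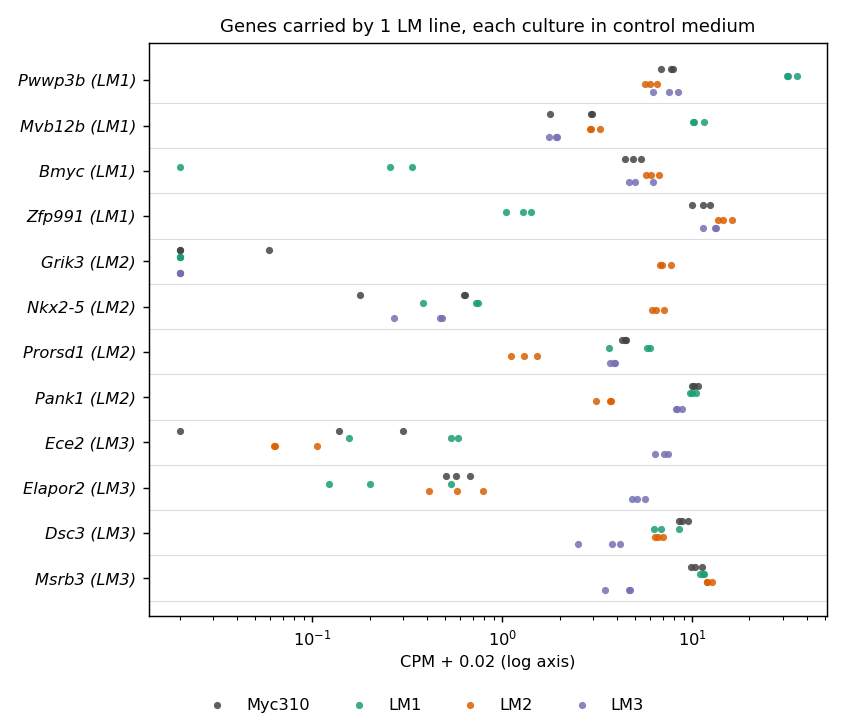
CPM in each of the 12 cultures, on a log axis with a small constant added, for 12 genes carried by a single LM line, named in parentheses. Each point is 1 culture. In every row the 3 points of the named line lie apart from the other 9, which overlap or lie near each other.

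The changes were also summarised by chromosome, over genes with a mean of at least 50 counts. On 17 chromosomes the median log2 fold change lay between 0 and 0.04 in LM1, -0.08 and 0.02 in LM2 and -0.06 and -0.01 in LM3. Chromosome 15 stood apart in LM2 and LM3, with medians of 0.27 and 0.43 against -0.05 in LM1, and over 4 parts of the chromosome with near equal numbers of genes they ranged from 0.24 to 0.30 in LM2 and from 0.41 to 0.45 in LM3. Chromosome 8 had a median of 0.23 in LM3, against 0 in LM1 and -0.02 in LM2, and chromosome 6 of -0.23 in LM1, where the middle parts were at -0.41 and -0.34. The shared classes were uneven in turn: on chromosome 15, 11% of tested genes were higher and 1.17% lower in all 3 lines, and on chromosome 6, 15.4% were lower. Igfbp6 lies on chromosome 15, Mmp2 on chromosome 8, and Slc2a3, Hk2 and Mat2a on chromosome 6. The part of these medians in the shared genes was not tested. The 15 tested mitochondrial genes had medians of -0.05, -0.47 and -0.52.

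**Figure D4:**
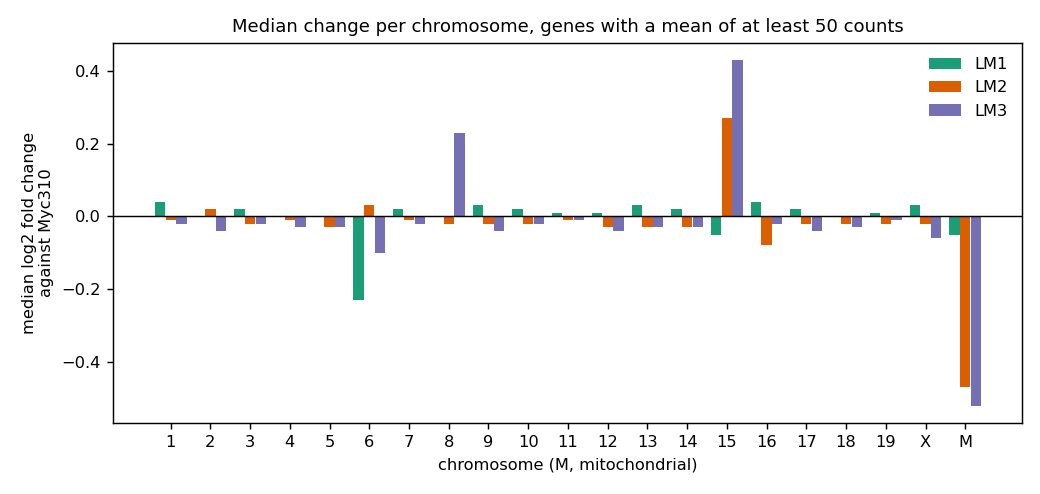
Median log2 fold change against Myc310 per chromosome in LM1, LM2 and LM3, over genes with a mean of at least 50 counts. Bars leave the range of -0.1 to 0.1 on chromosome 15 and the mitochondrial chromosome in LM2 and LM3, on chromosome 8 in LM3 and on chromosome 6 in LM1.

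Some shared increases lay side by side. Of 12756 pairs of neighbouring tested genes, both members were at least 2-fold higher in all 3 lines in 17 and at least 2-fold lower in 1. A run of neighbours, such as Sp110, Sp140 and Sp100, counts as more than 1 pair. Glcci1 overlaps the unnamed locus it is paired with, so the 17 pairs are not 17 separate sites. Besides Wnt6 with Wnt10a and P3h4 with Fkbp10, the pairs included Dock11 with Il13ra1 on the X chromosome. Il13ra1, a subunit of the receptor for interleukin 13, was at 4.80 to 5.70 CPM in Myc310 and at 28.3 to 40.6 CPM in the 9 LM cultures. Dock11, a guanine nucleotide exchange factor, had log2 fold changes of 6.06, 3.35 and 6.17. Chst1, a sulfotransferase paired with Syt13, was at means of 0.395 CPM in Myc310, 1.13 in LM1, 14.3 in LM2 and 12.5 in LM3.

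LM1 and Myc310 were also cultured for 6 h without cysteine and cystine, in cultures other than those that defined the classes. There, LM1 was above Myc310 without overlap for 178 of the 229 genes and below for 1, where 28.5% of all genes were above. It was below for 57 of the 59 lower genes and above for none, where 28.7% of all genes were below. Mmp2 was at 33.9 ± 2.59 CPM in LM1 and 0.540 ± 0.146 in Myc310 in that medium (SD, n = 3), and Ddr2 was at 833 ± 9.33 and 252 ± 2.80. Dixdc1 was at 2.54 ± 0.462 and 0.272 ± 0.0490 CPM. Slc7a11 was the other way round, at 160 ± 10.0 CPM in LM1 and 127 ± 3.59 in Myc310, a log2 fold change of 0.32 where control medium gave -0.67; the difference between the media was not tested here.

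Other lines of the series set these levels in context. Of the 229 higher genes, 158 reached 1 CPM in some of the 3 MYAZ lines, which come from other MMTV-cMYC tumours, as did 41 of the 59 lower genes and 90.7% of all tested genes. Fkbp10 was at 56.1 to 59.2 CPM and Dixdc1 at 13.7 to 18.8 CPM in the MYAZ line means, so that Myc310 was the low line for both. Mmp2, by contrast, was at 0.861 to 1.63 CPM in the MYAZ line means, near the 0.821 CPM of Myc310. In lines recovered from lungs after injection of LM cells, Mmp2 was at 55.0 to 144 CPM and Ddr2 at 299 to 402 CPM. Ptprf, which fell in the LM lines, was at 188 to 264 CPM in the MYAZ line means and at 1.57 to 2.24 CPM in the lines recovered after injection of LM cells.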

How the data were processed

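Libraries were made by the study from polyadenylated RNA with the directional NEBNext Ultra II kit and sequenced from both ends. Per the study's methods and the labels, the authors aligned reads to GRCm38 with STAR and took gene counts from RSEM, within nf-core's RNAseq workflow, and the submitters' processing notes also name R 4.2.2 and DESeq2 1.38.3. The annotation release and the strand setting in counting are not given in the sources used here. The deposited table holds raw counts as whole numbers, and each of its 45 columns carries a library name, which the samples' descriptions tie to the line and medium in their titles. Of 28454 genes listed, 5791 had no count in the 12 libraries.

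Counts were analysed in R 4.3.3 with edgeR 4.0.16. The 12 libraries were fitted together with line as the only term, after filterByExpr and TMM scaling, and contrasts were tested with edgeR's quasi-likelihood test, two-sided, with Benjamini-Hochberg adjustment over all 12786 genes and a threshold of 0.05. The same test was run on the 6 deprived libraries (12166 genes, of which 25.7% were higher and 27% lower in LM1) and on counts summed per line. CPM values were scaled over all 45 libraries. SE is the absolute log2 fold change divided by the square root of F. Against a group without counts, folds are lower bounds computed from a floor of 3 counts over the group's 3 cultures, and intervals cover counting error only. No pair of cultures was closer than sampling noise (chi-square per degree of freedom 2.29 to 4.58), and the tests were tested on simulated data. Positions are those of GENCODE M21, matched by gene identifier.

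Genes higher or lower in all 3 lines passed the threshold in each. The text names the 12 genes per direction with the largest change in their weakest line among those with at least 5 CPM in some line and no overlap; per line, up to 2 higher and 2 lower carried genes with the largest change; Myc, Xist and Y-linked genes; list members that passed in all 3 lines or were carried by 1; and glutathione genes. Ddr2, genes shown for a difference between LM1 and the other LM lines (Fdps, Tap2, H2-K1, Krt19 and Plat), marker genes and neighbouring pairs were named after their values were seen. The members, 22 pathway lists and 6 marker lists were chosen with earlier results of these data known; 18 of 756 list entries are not used here. Alternatives were RLE and upper-quartile scaling, no filter, a mean of at least 50 counts, DESeq2 1.42.0, limma 3.58.1, glmTreat at 1.5-fold, all 30 control libraries, the replicate number as a block, and leaving out each culture or line. Gene set tests were not run. Some list members are not reported here.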

Additional observations from a re-analysis of the deposited data

Results flagged for a closer look

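Of the 137 shared genes taken by the rule for named genes, Xist included, a pair of LM lines differed in edgeR's quasi-likelihood test for 118, and in 12 the difference was at least 8-fold, which singled them out here. The differences are on the log2 scale. Genes named after their values were seen are not among the 137, and of those that were higher or lower in all 3 lines P3h4 (-4.58, LM1 below LM3) and Chst1 (-3.71, LM1 below LM2) also differed by at least 8-fold.

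Among genes higher in all 3 lines, LM1 was at least 8-fold below LM3 for Tmem26 (-6.73), Cdh13 (-4.53), Fkbp10 (-3.87), Psmb8 (-3.50) and Col3a1 (-3.10). Tmem26, a transmembrane protein, had no count in Myc310, so that its level was at least 6.63-fold higher in LM1, 8.65-fold in LM2 and 702-fold in LM3. Cdh13, a cadherin anchored by a lipid, likewise had none and was at least 5.16-fold, 40.9-fold and 120-fold higher. Pdgfra, a receptor for platelet-derived growth factor, was lower in LM1 than in LM2 (-3.21), with means of 1.08 CPM in Myc310, 2.26 in LM1, 20.5 in LM2 and 8.95 in LM3. Eng was the exception in direction and was higher in LM1 than in LM2 (4.78).

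Among genes lower in all 3 lines, Gspt2 and Bst1 were lower in LM1 than in LM2 (-4.12 and -3.10), and Mmp24 and Kcnt1 were lower in LM1 than in LM3 (-3.33 and -3.18). Xist was higher in LM2 than in LM3 by 9.99.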

How the results depend on the processing

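Calls of each line against Myc310 were near the main counts under other scalings, filters and DESeq2, while a test against a 1.5-fold change called 738 genes in LM1, 969 in LM2 and 1013 in LM3, with 199 higher and 56 lower in all 3. Requiring a mean of at least 50 counts left 129 higher and 12 lower genes at 2-fold and 53, 12 and 11 genes carried by LM1, LM2 and LM3; fewer genes were tested. Counts summed per line were the least stable: 8 calls without a filter, 5 without LM2, 0 without LM3, 0 with the sums of the 4 lines alone, 37 with limma's voom and the line as a random block, 116 with DESeq2, and 681 and 5579 when cultures of 30 or 12 libraries counted as replicates. The cause of these differences was not tested.

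Leaving out 1 culture at a time gave 3960 to 4644 calls in LM1, 5699 to 6282 in LM2 and 5704 to 6315 in LM3. Shared genes were 723 to 804 higher and 498 to 592 lower, at 2-fold 217 to 229 and 55 to 71, and carried genes 103 to 131, 68 to 87 and 79 to 102. LM1 in deprived medium had 5838 to 6196 calls. For the summed counts a replicate number was instead left out of every line at once, which gave 2 to 3 calls. Cultures with the same number did not deviate together (correlations -0.256 to 0.248 for the same number, -0.282 to 0.275 for others), so the numbers do not pair them. With the replicate number as a block, 4526, 6224 and 6226 genes were called in LM1, LM2 and LM3, 810 were higher and 591 lower in all 3, and 801 of the 820 and 571 of the 589 kept their call. Leaving out the genes of chromosomes 6, 8 and 15 was chosen after seeing the data. With 10939 genes then tested, 687 were higher and 473 lower in all 3 lines. The counts per line, the shared counts and the carried counts stayed within 1.5 times, but the setting mostly takes those genes out of the counts. It therefore cannot tell what part the medians of these chromosomes have in the shared genes.

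For the named genes, 4642 values were recomputed, of which 318 lost their call or class, 2 gained one and 0 changed direction. Depth limits genes near 0 in Myc310, whose folds have wide counting intervals. The 3 derived lines and 1 parental line limit any statement on lung-derived lines as a group.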

Other observations

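Syt13, a synaptotagmin, and the pair Spint2 and Ppp1r14a on chromosome 7 were also higher in all 3 lines. Spint2, an inhibitor of serine proteases at epithelial surfaces, had log2 fold changes of 1.85, 1.77 and 2.39 in LM1, LM2 and LM3, Ppp1r14a, an inhibitor of myosin phosphatase, of 3.79, 3.72 and 2.88, and Syt13 of 2.52, 1.65 and 1.14. On chromosome 8, Fam149a (3.44, 1.67 and 1.97) lay beside Tlr3, the endosomal receptor for double-stranded RNA (1.63, 1.73 and 1.77). Ntn1, the secreted guidance protein netrin 1, was at 0.197, 0.220 and 0.234 CPM in Myc310, 4.74, 6.28 and 5.91 in LM1, 13.9, 13.9 and 13.2 in LM2 and 41.4, 35.9 and 37.8 in LM3, without overlap between any 2 lines. These genes were picked after their values were seen.

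Of the remaining lists, 3 of 23 tested chemokines and cytokines were higher in all 3 lines and 1 was lower, with Il15 at log2 fold changes of 2.30, 1.80 and 3.08 and Tgfb2 at 2.87, 1.77 and 2.37. Ccl7, the third, had 1 count in Myc310 and ratios of counts of 28.7 (4.72 to 1180), 16 (2.48 to 670) and 93.3 (16.3 to 3720). Cx3cl1, the membrane-bound chemokine fractalkine, was the lower gene, at means of 29.1 CPM in Myc310, 16.2 in LM1, 19 in LM2 and 25.8 in LM3, and it missed the threshold without Myc310 replicate 2 (smallest change -0.13, adjusted p = 0.154). Of the mammary markers, 0 of 8 luminal genes were higher and 1 lower in all 3 lines, and 2 of 7 basal genes were higher and 1 lower. The luminal gene was Gata3, a transcription factor, which missed the threshold without LM1 replicate 2 (adjusted p = 0.0584). The basal genes were Mylk, myosin light chain kinase (0.84, 0.47 and 0.87), Vim, which missed it without Myc310 replicate 2 (adjusted p = 0.132), and the lower Jag2, a Notch ligand.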
